A study of Rattus norvegicus with 6 samples.

Results

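AZD0156 and KU55933, both inhibitors of the kinase Atm, were compared directly in cultured rat lenses, each on 1 microarray of the 6 in the series. The lenses came from male Sprague-Dawley rats 6 weeks of age and were kept in M199 medium with bovine serum albumin. The lenses of both arrays spent 6 days in 30 mM galactose, with the inhibitor, dissolved in DMSO, present at 20 µM for the last 3 days. The 3 Galactose arrays came from lenses in 30 mM galactose for 6 days with DMSO alone, and the 1 Control array from lenses without galactose, for which the methods name sterile water and no DMSO. Culture of the Control lasted 6 days by the methods and fewer by the scheme of the experiment, so its values are printed for orientation only. Dose and time were matched between the inhibitors, and this was the only pair of compounds on the arrays, so 1 pair was compared. The number of lenses behind each array, and whether the Galactose replicates came from different animals, are not given in the sources used here. Neither inhibitor array has a replicate. The spread of the 3 Galactose arrays was therefore the only yardstick, and it was assumed to hold for the inhibitor arrays.

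Atm is a protein kinase that is activated by DNA double-strand breaks and by oxidants. It phosphorylates p53, Chk2, H2AX and many other proteins, and through p53 it raises transcription of genes such as Cdkn1a, Mdm2 and Gadd45a. The lens is a single epithelial layer over a mass of elongated fibre cells filled with crystallins, and galactose is reduced there to galactitol by aldose reductase, which draws in water and leads to cataract. Both compounds compete with ATP for the kinase, and related kinases of the same family include DNA-PK, ATR and mTOR. The signal of Atm itself was under 5 on every array (2.64 to 3.12 on the deposited log2 scale), and its transcript was not tested.

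The array holds 36685 probe sets, and 19086 of them carry a link to a gene. The 5784 with a log2 signal of at least 5 on at least 1 array were compared, and they cover 5478 genes by 1 probe set with 1 symbol each. The last probe set inside this limit belongs to Nudt11 (highest value just above 5) and the first outside to Ubtd2, whose highest value lay just below 5. For 59 probe sets the AZD0156 array alone reached 5, and for 91 the KU55933 array alone. Over the 5784, the median was 5.55 with AZD0156, 5.79 with KU55933, 5.69, 5.75 and 5.81 in Galactose replicates 1, 2 and 3, and 5.79 in the Control. Each array was centred on this median. A centred signal of 0 is the middle of that array, and a difference of 1 is 2-fold. Centring removed a median difference of -0.23 between the inhibitors. All 4 lens fibre markers on the array were at 5 or above on every array. Markers of immune cells, endothelium, retina, blood and pigment or ciliary epithelium were under 5 on every array, and 1 of 5 smooth muscle markers reached 5, in the Control. After centring, 4 of the 6 lens epithelium markers were higher with AZD0156 than with KU55933 and 2 were lower (median difference 0.33). Their summed deposited signal (log2, not centred) was 9.77 with AZD0156 and 10.04 with KU55933. In the Galactose replicates it was 9.98, 10.7 and 10.8. Galactose replicate 1 thus lay nearer to both inhibitor arrays than to the other replicates in these markers, and their part in the differences below was not tested. In whole lenses, fewer cells of a type and less RNA per cell cannot be told apart.

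AZD0156 and KU55933 differed from each other by about as much as Galactose replicate 1 differed from the other Galactose arrays. The SD of the centred differences over the 5784 probe sets was 0.441 between the inhibitors. Between Galactose replicates 1 and 2 it was 0.437, between 1 and 3 it was 0.448, and between 2 and 3 it was 0.303. A difference of at least 1 in size was seen for 191 probe sets between the inhibitors (84 higher and 107 lower with AZD0156), or 3.3% of those compared. The shares for the Galactose pairs were 3.11%, 3.39% and 0.778%. KU55933 lay closest to Galactose replicate 1 (SD 0.320, 52 probe sets past 1) and farther from replicates 2 and 3 (0.423 and 0.401). AZD0156 lay 0.483, 0.468 and 0.447 from the 3 replicates. Differences of this number and size were thus also found between replicate arrays, and Galactose values are given with most genes below. Over all 5478 genes, AZD0156 lay above all 3 Galactose arrays in 31.2% and below them in 27.6%, and KU55933 in 24.5% and 23.2%. These are the shares against which counts outside the Galactose range are to be read. Galactose replicate 1 was the lowest replicate in 39.7% of genes and the highest in 37%.

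**Figure D1:**
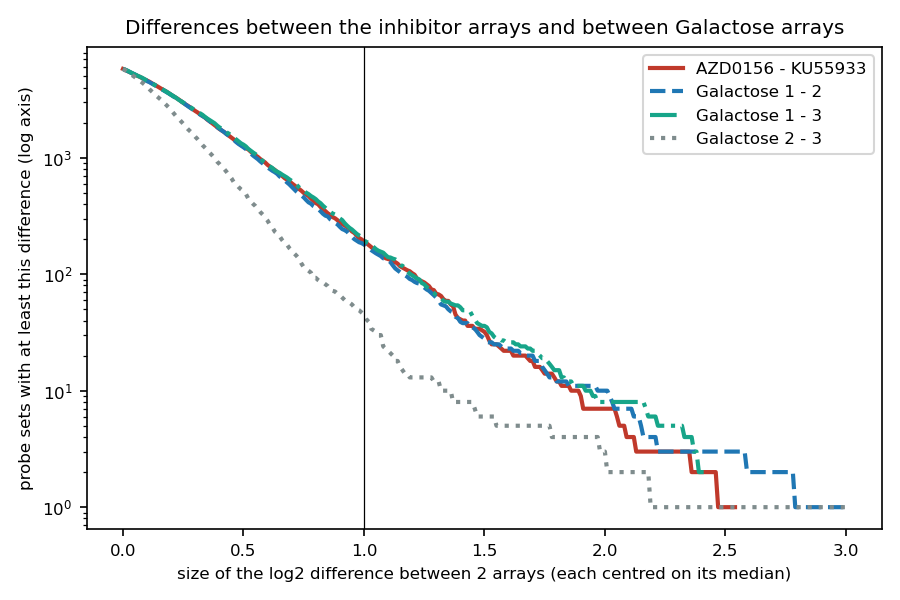
Number of probe sets (vertical axis, logarithmic) whose centred log2 signal differed between 2 arrays by at least the size on the horizontal axis, for AZD0156 against KU55933 and for the 3 pairs of Galactose arrays. At a difference of 1 (vertical line) the inhibitor pair had 191 probe sets, the pairs with Galactose replicate 1 had 180 and 196, and replicates 2 and 3 had 45.

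No probe set passed limma's test of AZD0156 against KU55933 at an adjusted p of 0.05 (0 higher, 0 lower, lowest adjusted p = 0.586). At an unadjusted p of 0.05, 172 were higher with AZD0156 (2.97%) and 263 lower (4.55%). With 1 probe set per gene these shares were 3.07% and 4.51% of 5478 genes. The median standard error of a difference was 0.309, and the median 95% interval, not adjusted for the number of probe sets, reached 0.722 to each side. Differences of that size or smaller were not resolved, and no larger difference passed the adjusted test either. A p that missed the threshold does not show that the compounds act alike. Because no difference passed, genes are described below by a rule of size, a centred difference of at least 1 that also exceeded the range of the 3 Galactose arrays. It kept 75 probe sets higher with AZD0156 (1.3% of 5784) and 97 lower (1.68%). Without centring, the split was 27 higher to 269 lower. Of the 75, 38 had all 3 Galactose arrays between the inhibitors, in 28 only AZD0156 lay outside the Galactose range, in 5 only KU55933, and in 4 both lay on the same side. The same counts for the 97 were 49, 32, 7 and 9. The higher ones were dim, with a median deposited signal of 5.05 against 5.72 over all probe sets compared, and 20 of them had entered only because the AZD0156 array reached 5. The lower ones had a median of 5.96, and 9 had entered through KU55933 alone. The test depended on the Galactose arrays. Without replicate 1, 363 probe sets were called (147 higher, 216 lower), without replicate 2 there were 33, and without replicate 3 there was 1.

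The lowest p among genes lower with AZD0156 belonged to Ifi27, an interferon-induced protein of mitochondria. Its centred signal was -0.98 with AZD0156, 1.37 with KU55933, 1.80, 1.10 and 1.10 in the Galactose replicates and 1.01 in the Control, a difference of -2.35 between the inhibitors (95% interval -3.30 to -1.41, adjusted p = 0.586 from limma). AZD0156 was the low array of the 6, and KU55933 was within the Galactose range. Pip4p2, a phosphatidylinositol phosphatase, stood at -1.45 with AZD0156, whereas the Galactose replicates stood at -0.09 to 0.08 and KU55933 stood among them (difference -1.45, interval -2.05 to -0.86). Trim5 read -0.51 with AZD0156, 0.98 with KU55933, 0.46, 0.56 and 0.86 in the Galactose replicates and -0.72 in the Control (difference -1.49). Hspa2, a member of the Hsp70 family, stood at -2.19 with AZD0156 against -0.77 with KU55933 and -0.80 to -0.51 in Galactose (difference -1.42). In Ifi27, Pip4p2 and Hspa2 the AZD0156 array alone stood apart from the lenses in galactose, whereas in Trim5 KU55933 also lay just above the Galactose range. Cd48, a surface protein best known from leukocytes, read -0.88 with AZD0156, 0.68 with KU55933 and 0.63, 0.08 and 0.24 in Galactose, with 0 of 10 immune markers at 5 or above on any array. C18h18orf32 had a difference of -1.68 and Tspan13, a tetraspanin, of -1.29. Cntf, the ciliary neurotrophic factor, read -1.86 with AZD0156 and -0.49 with KU55933, both below the 0.01 to 0.45 of the Galactose replicates. The adjusted p from limma of each of the 12 genes with the lowest p in either direction was 0.586. Of these 24, 24 were called without Galactose replicate 1, 13 without replicate 2 and 0 without replicate 3. The same fits called 363, 33 and 1 of all 5784 probe sets. The 24 were picked by their low p on these same arrays, so these counts give them no support.

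Of the 12 lower genes, Atf5, Ssr3, Egr1, Gadd45a, Tspan13, Trim5 and Cd48 had KU55933 above and AZD0156 below all Galactose arrays. Atf5, a stress-induced transcription factor, read 1.17 with AZD0156, 1.84 to 2.21 in Galactose and 2.75 with KU55933, and the Control stood at 3.12. Ssr3, a subunit of the translocon-associated protein complex of the ER, read -0.07 with AZD0156, 0.68, 0.54 and 0.62 in Galactose and 1.19 with KU55933. Such an order, in which both inhibitors departed from Galactose in opposite directions, was seen for 334 probe sets with AZD0156 lower and 334 with AZD0156 higher, 5.77% each (5.81% and 5.99% of genes). Sod2, the mitochondrial superoxide dismutase, belonged to them with -0.69 with AZD0156, -0.33 to -0.17 in Galactose and 0.21 with KU55933, a difference of -0.89 that was under the size limit.

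Among the genes higher with AZD0156, Rpph1, the RNA subunit of RNase P, had the lowest p. Its centred signal was 7.64 with AZD0156, 6.32 with KU55933, 6.82, 6.96 and 6.87 in the Galactose replicates and 7.40 in the Control (difference 1.31, 95% interval 0.84 to 1.79, adjusted p = 0.586 from limma). Pkib, an inhibitor of protein kinase A, read 2.53 with AZD0156, 1.58, 1.63 and 0.98 in Galactose and 0.45 with KU55933 (difference 2.08, interval 1.17 to 2.99). In both genes the Galactose arrays lay between the inhibitors. Tgfb3, a growth factor of the TGF-beta family, stood at -0.18 with AZD0156, -0.56, -0.67 and -0.78 in Galactose and -1.74 with KU55933 (difference 1.57). Sorbs3, an adaptor of cell adhesions also called vinexin, stood at 0.51 with AZD0156, while KU55933 at -0.85 was close to the -0.80 to -0.63 of Galactose. Atp5pd, a stalk subunit of ATP synthase, read 0.49 with AZD0156 against -0.59 with KU55933 and -0.71 to -0.58 in Galactose. In Atp5pd, KU55933 lay within the Galactose range, as it did in Rpl37al2, a copy related to ribosomal protein L37a that may share probes with its relatives (difference 1.79). Aplp1, a relative of the amyloid precursor protein, had a difference of 1.28 and Plekho2 of 1.52. The odorant receptor genes Olr876 (1.22) and Or12k7b (1.79) and the microRNA genes Mir324 (1.52) and Mir761 (1.12) completed the 12. Or12k7b reached 5 on the AZD0156 array alone.

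**Figure D2:**
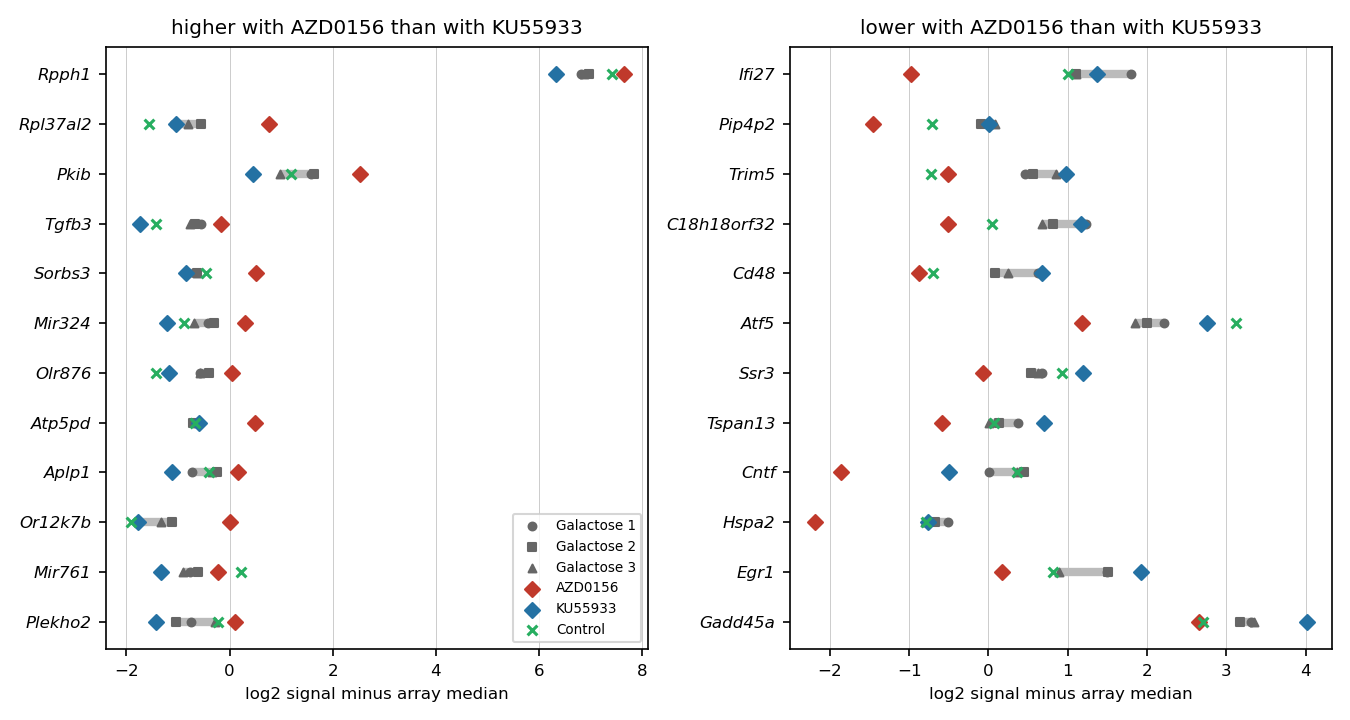
Centred log2 signal (horizontal axis, 0 is the array median) of the 12 genes with the lowest p in each direction among those past the rule of size, 1 point per array. Grey bars join the 3 Galactose arrays, and in Ifi27, Pip4p2 and Hspa2 the red AZD0156 point lies far from them while the blue KU55933 point lies at or among them.

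Both mature arms of Mir324 are shown because its probe set is linked to the gene and does not tell the arms apart. Its centred signal was 0.30 with AZD0156, -1.21 with KU55933, -0.41, -0.30 and -0.69 in Galactose and -0.89 in the Control. The hairpin lies on chromosome 10 of GRCr8, plus strand, with the 5p arm at chr10:55233378-55233400 and the 3p arm at chr10:55233413-55233434. Capitals mark the seed, bases 2 to 8, which differs between the arms.
rno-miR-324-5p: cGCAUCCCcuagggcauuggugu
rno-miR-324-3p: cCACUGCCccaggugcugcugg

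Interferon-response genes and metallothioneins had the largest shares of measured members past the rule of size among the lists described, and in both these members were lower with AZD0156. Interferon genes encode antiviral proteins and parts of antigen presentation, and metallothioneins bind zinc and copper. Of 30 interferon-response genes on the array, 5 passed the filter on signal, and 4 of the 5 were past the rule, all lower with AZD0156 (1.61% of all genes compared were lower by this rule). The median difference of the 5 was -1.51, against 0.02 over all genes. B2m, the light chain of MHC class I, read 2.90 with AZD0156, 3.98 with KU55933, 3.73, 3.66 and 3.91 in Galactose and 2.52 in the Control (difference -1.08, interval -1.80 to -0.37). Ifi27l2b, a relative of Ifi27, read 0.38 with AZD0156 and 1.89 with KU55933, with 1.20, 0.32 and 0.20 in Galactose, so here KU55933 stood above and AZD0156 stood within the Galactose range. Ifitm2, an interferon-induced membrane protein, read -3.27 with AZD0156, -1.74 with KU55933 and -2.08 to -1.31 in Galactose, and the Control, at -0.43, was its highest array. Ifitm2 reached 5 in the Control alone and was under 5 on both inhibitor arrays, so its difference is between dim signals, and 3 of the 4 genes past the rule reached 5 on KU55933. Gbp2, a guanylate-binding protein, had a difference of 0.02. In B2m, as in Ifi27, AZD0156 was below every Galactose array and KU55933 was within or just above their range.

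The metallothioneins Mt1 and Mt2A were both past the rule of size. Mt1 read 2.98 with AZD0156, 4.29 with KU55933, 4.15, 4.38 and 3.52 in Galactose and 1.58 in the Control (difference -1.32, 95% interval -2.34 to -0.30, adjusted p = 0.586 from limma). Mt2A read 4.90 with AZD0156, 6.09 with KU55933, 5.70, 6.06 and 5.52 in Galactose and 4.43 in the Control (difference -1.19, interval -1.93 to -0.46, adjusted p = 0.586). In both, the AZD0156 array lay between the Control and the Galactose arrays. Mtf1, the zinc-sensing transcription factor that binds metallothionein promoters, had a difference of 0.32, and the zinc transporter Slc39a1 of -0.02. The promoters of Mt1, Mt2A, Ifi27 and B2m are shown since these genes stood lower with AZD0156 together. They are the 250 bases before the RefSeq start in GRCr8, at chr19:10832976-10833225 (minus strand) for Mt1, chr19:10838709-10838958 (minus) for Mt2A, chr6:128355062-128355311 (plus) for Ifi27 and chr3:129549080-129549329 (plus) for B2m, each written along its gene. Capitals mark matches on either strand, in Mt1 and Mt2A to the core of the metal response element (TGCACNC or TGCGCNC) and in Ifi27 and B2m to the core of the interferon-stimulated response element (GAAA, any 2 bases, GAAA).
Mt1: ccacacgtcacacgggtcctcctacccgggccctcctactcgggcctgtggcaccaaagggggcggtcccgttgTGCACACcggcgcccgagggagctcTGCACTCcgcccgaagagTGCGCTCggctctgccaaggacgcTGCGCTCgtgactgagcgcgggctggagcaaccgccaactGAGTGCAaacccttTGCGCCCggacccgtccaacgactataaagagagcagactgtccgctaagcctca
Mt2A: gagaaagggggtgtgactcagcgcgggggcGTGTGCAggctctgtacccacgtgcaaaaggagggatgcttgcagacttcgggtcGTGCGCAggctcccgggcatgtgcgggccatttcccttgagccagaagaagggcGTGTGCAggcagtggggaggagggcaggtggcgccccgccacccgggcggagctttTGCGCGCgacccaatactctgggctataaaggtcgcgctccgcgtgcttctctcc
Ifi27: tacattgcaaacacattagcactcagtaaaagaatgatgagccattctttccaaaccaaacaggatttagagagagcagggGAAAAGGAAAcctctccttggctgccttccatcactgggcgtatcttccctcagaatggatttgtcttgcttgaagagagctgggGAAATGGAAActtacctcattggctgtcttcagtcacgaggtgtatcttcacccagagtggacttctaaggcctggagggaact
B2m: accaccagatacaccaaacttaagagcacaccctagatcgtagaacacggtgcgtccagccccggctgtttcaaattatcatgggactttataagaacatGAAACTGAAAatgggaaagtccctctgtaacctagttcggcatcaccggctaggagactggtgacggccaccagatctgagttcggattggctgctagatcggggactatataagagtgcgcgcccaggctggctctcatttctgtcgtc
Mt1 held 6 matches and Mt2A 4. At least 4 were found in 0.266% of 33469 rat promoters of the same length, and at least 6 in 0.0269%. Ifi27 held 2 matches to the interferon element and B2m 1, against 0.206% of promoters with at least 2 and 3.41% with at least 1. A match is only a match of letters.

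Genes of the integrated stress response, which are raised by the transcription factor ATF4 when amino acids run short or unfolded protein builds up, were mostly lower with AZD0156 than with KU55933. Of the 25 compared, 23 had a negative difference (48.2% of all genes), with a median of -0.47 against 0.02 over all genes. Only Atf5 was past the rule of size (1.61% of all genes were lower by it). At an unadjusted p of 0.05 from limma, 3 were lower and 1 higher (4.51% and 3.07% of all genes), and 0 passed the adjusted test. KU55933 lay above all Galactose arrays in 14 of the 25 and AZD0156 below them in 10, against 24.5% and 27.6% of all genes. AZD0156 lay above them in 5 and KU55933 below them in 1, against 31.2% and 23.2%. In those 5, among them Ddit3 and Nupr1, both inhibitors were above Galactose. Atf4 itself had a difference of -0.03. Chac1, which degrades glutathione, read 0.99 with AZD0156, 2.06 with KU55933, 1.24, -0.05 and 0.03 in Galactose and 2.16 in the Control (difference -1.07, interval -2.46 to 0.33), so its Galactose arrays varied by more than the inhibitors differed. Trib3, a pseudokinase, read -0.16 with AZD0156 and 0.72 with KU55933, with -0.62 to 0.13 in Galactose (difference -0.88). Ddit4, an inhibitor of mTORC1, had a difference of -0.89 and Galactose values of 0.93 to 1.96. Slc38a2, an amino acid transporter, read 0.28 with AZD0156, 1.12 with KU55933 and 0.32 to 0.38 in Galactose, and the Control stood at 2.55. In Trib3 only KU55933 lay outside the Galactose range, and in Slc38a2 it was outside by the larger step. Slc7a11, the cystine transporter, ran the other way, with 0.03 with AZD0156, -0.81 with KU55933 and -1.595 to -1.275 in Galactose, so that both inhibitors were above Galactose. Slc7a11 reached 5 only with AZD0156 and in the Control, so its order among the dimmer arrays was not resolved. Among 18 aminoacyl-tRNA synthetases, 14 had a negative difference (48.2% of all genes, list median -0.19) and 0 were past the rule of size. Eprs1, which charges glutamate and proline, read 1.28 with AZD0156, 2.23 with KU55933 and 1.26 to 1.48 in Galactose.

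ER chaperones and ER-associated degradation included 10 of 22 genes with KU55933 above all Galactose arrays (24.5% of all genes) and 0 with KU55933 below them (23.2%). The median difference was -0.35, 17 of 22 were negative (48.2% of all genes), and 1 was past the rule of size (1.61% of all genes were lower by it). That 1 was Herpud1, a membrane protein of ER-associated degradation, which read 2.30 with AZD0156, 3.46 with KU55933, 2.22, 2.10 and 2.08 in Galactose and 2.70 in the Control (difference -1.16, interval -1.86 to -0.45, adjusted p = 0.586 from limma). Hspa5, the main ER chaperone, also called BiP, read 3.32 with AZD0156, 4.10 with KU55933, 3.68, 3.48 and 3.27 in Galactose and 2.27 in the Control (difference -0.78). Sel1l, a part of the ubiquitin ligase complex of the same pathway, read -0.22 with AZD0156, 0.54 with KU55933 with Galactose arrays from -0.26 to just below 0. In all 3, KU55933 was the highest of the galactose-cultured arrays and AZD0156 lay among or just above the Galactose arrays.

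Targets of p53 did not move one way. Of 10 compared, Mdm2 and Phlda3 were higher with AZD0156 by the rule of size (1.35% of all genes) and Gadd45a was lower (1.61%). The median over the list was 0.28. Gadd45a, which acts in growth arrest and DNA repair, read 2.65 with AZD0156, 4.02 with KU55933, 3.31, 3.17 and 3.35 in Galactose and 2.71 in the Control (difference -1.37, 95% interval -2.08 to -0.66). Mdm2, the ubiquitin ligase of p53, read 2.71 with AZD0156 and 1.45 with KU55933, with 1.14, 2.37 and 1.76 in Galactose and 0.04 in the Control (difference 1.26, interval 0.01 to 2.52, adjusted p = 0.658 from limma). Cdkn1a, which encodes the cell cycle inhibitor p21, read 1.88 with AZD0156 and 0.92 with KU55933, with 0.70, 1.72 and 1.24 in Galactose (difference 0.95). Phlda3, an inhibitor of Akt, read -0.14 with AZD0156, -1.37 with KU55933 and -1.04, -0.78 and -0.35 in Galactose (difference 1.23). Galactose replicate 1 was the lowest replicate in Mdm2, Cdkn1a and Phlda3, and in 7 of the 10 (39.7% of all genes). The 9 genes of Atm signalling and the DNA damage response had differences of -0.25 to 0.15, and 0 were past the rule of size or an unadjusted p of 0.05. H2ax, whose product is a substrate of Atm, was below all Galactose arrays on both, with -0.60 with AZD0156, -0.35 with KU55933 and 0.18 to 0.52 in Galactose. Plk3, a kinase downstream of Atm, read -0.86 and -0.90, with -0.63 to -0.18 in Galactose and -3.03 in the Control (difference 0.04, interval -0.76 to 0.85). Plk3 passed the filter on signal through the Galactose arrays only, and so entered through the arrays where it was high. Its difference between the inhibitors is between dim signals, and its place below Galactose was not resolved.

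**Figure D3:**
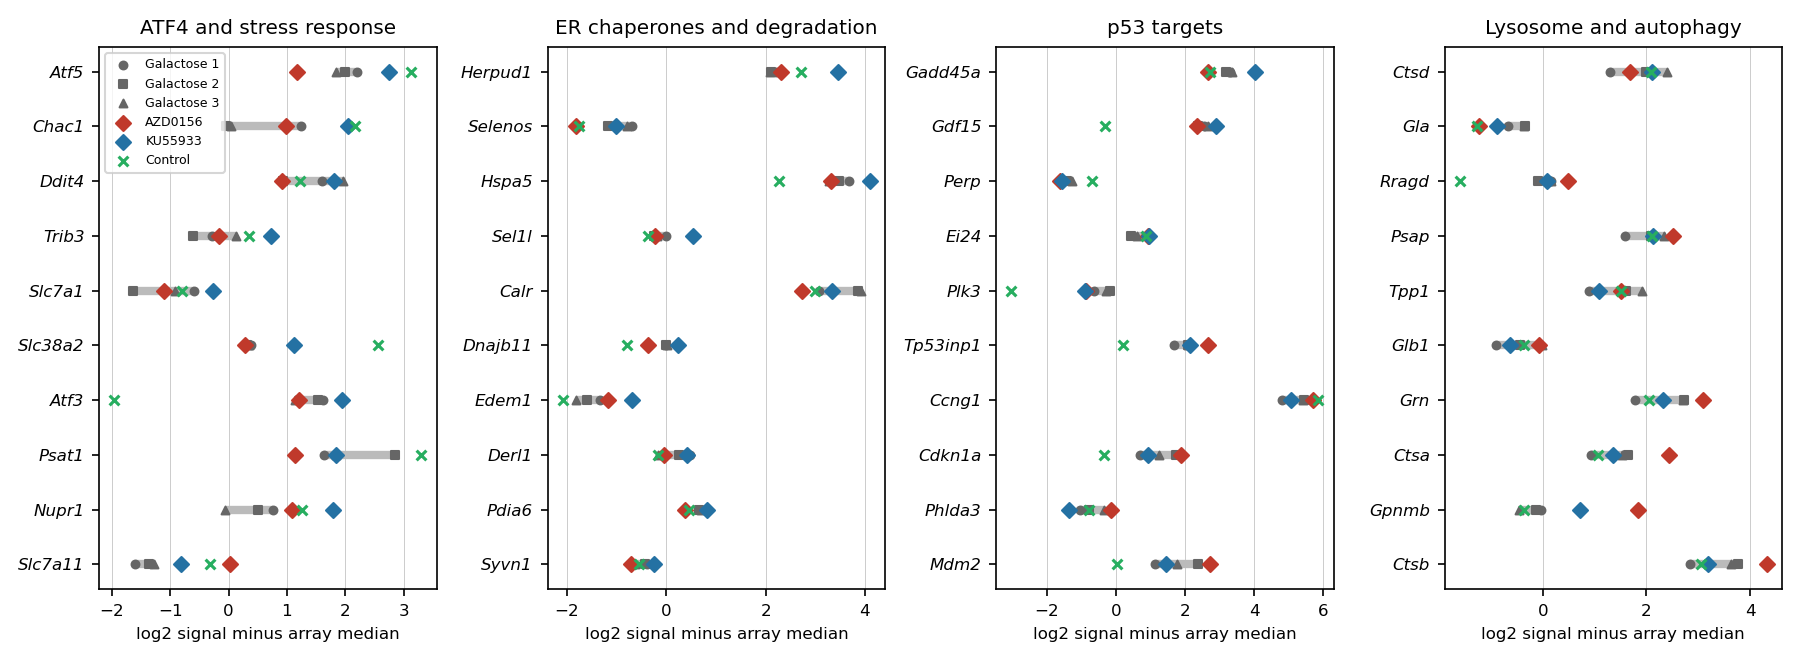
Centred log2 signal (horizontal axis) on each array for up to 10 genes with the largest differences in each of 4 gene lists, with grey bars joining the 3 Galactose arrays. Blue KU55933 points lie right of the bar for Herpud1, Hspa5 and Sel1l, and red AZD0156 points lie right of it for Ctsb, Ctsa and Gpnmb.

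Lysosomal genes included 3 that were higher with AZD0156 by the rule of size, out of 31 compared (1.35% of all genes were higher by this rule), and 0 that were lower. The median of the list was 0.09, and -0.15 without centring, so its direction depended on the scaling. AZD0156 lay above all Galactose arrays in 15 of the 31 and KU55933 in 9 (31.2% and 24.5% of all genes), and Galactose replicate 1 was the lowest replicate in 19 (39.7%). Gpnmb, a membrane glycoprotein of lysosomes and melanosomes, read 1.84 with AZD0156, 0.72 with KU55933, -0.04, -0.14 and -0.46 in Galactose and -0.36 in the Control (difference 1.12, 95% interval 0.42 to 1.82, adjusted p = 0.586 from limma). Both inhibitors were above every Galactose array, AZD0156 by more. Ctsb, cathepsin B, read 4.32 with AZD0156, 3.19 with KU55933 and 2.85, 3.77 and 3.63 in Galactose (difference 1.13). Ctsa, the protective protein of lysosomal galactosidase, read 2.43 with AZD0156, 1.36 with KU55933 and 0.94, 1.64 and 1.53 in Galactose (difference 1.07). Grn, the progranulin gene, had a difference of 0.77. In Ctsb, Ctsa and Grn, KU55933 lay within the Galactose range, above replicate 1 and below replicates 2 and 3.

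Early-response and inflammatory genes gave larger differences in both directions. Of 14 immediate early genes, Egr1 and Ier2 were lower with AZD0156 by the rule of size (1.61% of all genes) and Nr4a1 was higher (1.35%). The median of the list was -0.37. Egr1, a zinc finger transcription factor induced within minutes of a stimulus, read 0.17 with AZD0156, 1.92 with KU55933, 0.89 to 1.51 in Galactose and 0.81 in the Control (difference -1.75, interval -2.64 to -0.85). Ier2 read -1.83 with AZD0156, -0.12 with KU55933 and -0.27, -0.73 and -1.19 in Galactose (difference -1.70). Nr4a1, an orphan nuclear receptor, read 1.96 with AZD0156, 0.25 with KU55933, 0.18, 0.32 and -0.68 in Galactose and -1.65 in the Control (difference 1.71, interval 0.61 to 2.80). AZD0156 alone was outside the Galactose range in Nr4a1, and in Egr1 and Ier2 the inhibitors were outside it on opposite sides. Jun, a subunit of AP-1, had a difference of -0.85. Among 8 chemokine and inflammatory genes, AZD0156 lay below all Galactose arrays in 7 and KU55933 in 5 (27.6% and 23.2% of all genes), with a median difference of -0.60. Ccl2, a chemokine for monocytes, read -0.85 with AZD0156, 0.31 with KU55933, 0.60 to 1.595 in Galactose and -0.95 in the Control (difference -1.16). Nfkbia, the inhibitor of NF-kappaB, had a difference of -0.999 and Tnfrsf1a, a receptor of TNF, of -0.87. Socs3, a feedback inhibitor of cytokine receptors, read -1.56 with AZD0156, -0.39 with KU55933 and -1.33 to -0.88 in Galactose (difference -1.17). It reached 5 on the KU55933 array alone, and so entered through the array where it was high.

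**Figure D4:**
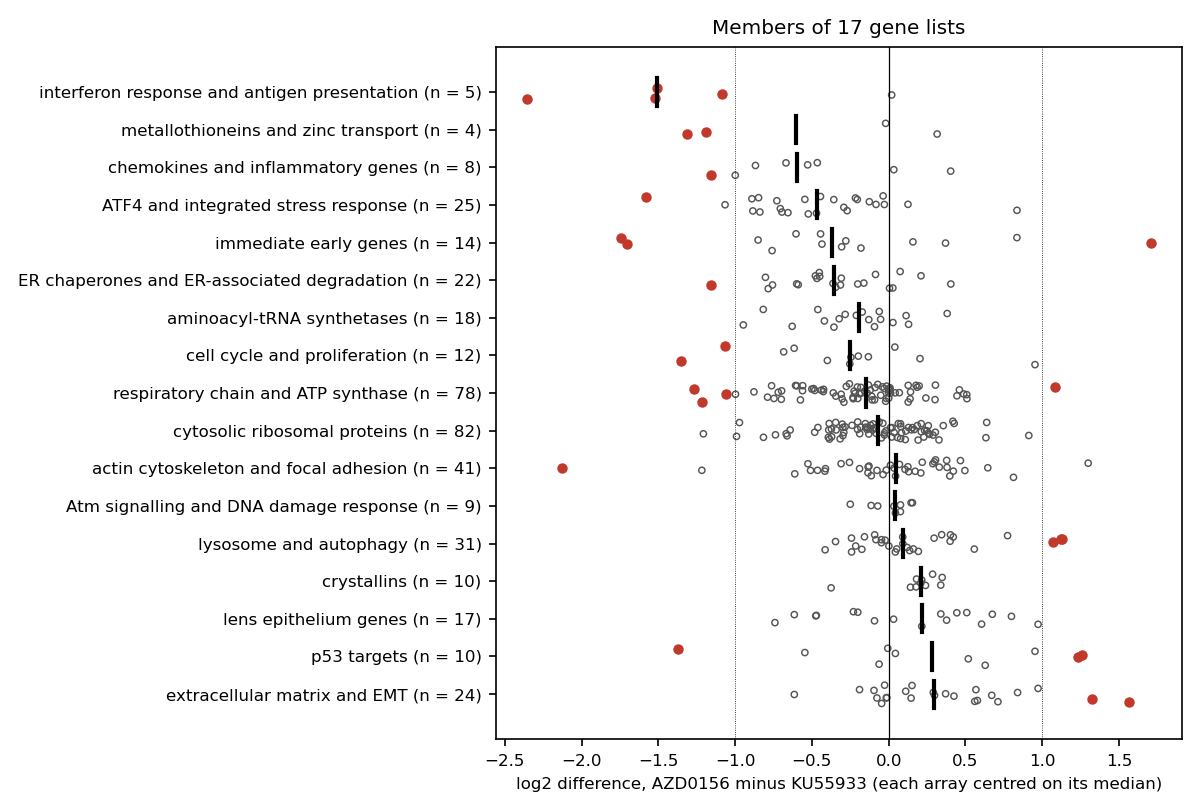
Differences of AZD0156 from KU55933 in centred log2 signal (horizontal axis) for the members of 17 gene lists, 1 circle per gene, with filled red circles past the rule of size and a black bar at the list median. Interferon-response and stress-response members lie mostly left of 0, whereas the 9 Atm signalling genes lie between -0.25 and 0.15.

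Several proliferation and cytoskeleton genes were below all Galactose arrays with both compounds. Rrm2, a subunit of ribonucleotide reductase, read -3.43 with AZD0156, -2.08 with KU55933, -0.96, 0.19 and -0.18 in Galactose and -3.03 in the Control (difference -1.35, interval -2.79 to 0.09). Mki67, the proliferation marker Ki-67, read -2.78 with AZD0156, -1.72 with KU55933 and -0.63, -0.61 and 0.11 in Galactose (difference -1.07, interval -2.15 to 0.02). These 2 were the members past the rule of size among 12 cell cycle genes (1.61% of all genes were lower by it). Both were under 5 on the inhibitor arrays and in the Control, where signals are too dim to rank. Tuba1c, an alpha-tubulin, read 0.53 with AZD0156, 1.46 with KU55933, 2.57 to 3.04 in Galactose and 0.46 in the Control (difference -0.93). H3f3b, which encodes histone H3.3, was not among them. It read 4.54 with AZD0156, 5.55 with KU55933 and 5.17 to 5.46 in Galactose, so KU55933 lay just above the Galactose range (difference -1.01). Of 41 actin cytoskeleton genes, AZD0156 lay below all Galactose arrays in 24 and KU55933 in 23 (27.6% and 23.2% of all genes), and the inhibitors differed by a median of 0.04 (-0.19 without centring). Flnc, filamin C, was the 1 past the rule (1.61% of all genes were lower by it). It read -0.30 with AZD0156, 1.82 with KU55933 and 2.11, 0.61 and 0.65 in Galactose (difference -2.13), and Galactose replicate 1 stood with KU55933. Tagln, an actin-binding protein of smooth muscle, read 0.28 and 0.75 with AZD0156 and KU55933, and Actn1, alpha-actinin, 0.05 and 0.19, each below all 3 Galactose arrays. For Acta1, skeletal muscle actin, the difference of 1.30 was smaller than the Galactose range of 1.69. Actg1, cytoplasmic gamma-actin, is measured only by 2 probe sets that carry several symbols, whose mean deposited signal was 10.6 with AZD0156, 10.9 with KU55933 and 11.2, 11.98 and 11.9 in Galactose. Angptl4 had a difference of -0.10 and Tnfrsf12a, the TWEAK receptor, of -0.46, and in both genes both inhibitors were below every Galactose array. Angptl4 reached 5 on the Galactose arrays only, and so entered through the arrays where it was high.

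Lens genes gave mostly small differences between the compounds. The 10 crystallin genes had differences of -0.37 to 0.35, and 0 were past the rule of size or an unadjusted p of 0.05. The median was 0.21, and it was -0.03 without centring and -0.07 after quantile normalization. Crygd read 7.70 with AZD0156, 7.35 with KU55933 and 7.47, 7.40 and 7.21 in Galactose. Among 17 lens epithelium genes, 0 were past the rule of size, and Galactose replicate 1 was the lowest replicate in 14 (39.7% of all genes). Aqp1, a water channel of the lens epithelium, read -0.33 with AZD0156, -1.13 with KU55933, -1.17 to -0.90 in Galactose and 1.36 in the Control (difference 0.80, interval 0.16 to 1.43). Aqp1 reached 5 only with AZD0156 and in the Control. Of 24 extracellular matrix and EMT genes, Tgfb3 and Zeb1 were higher with AZD0156 by the rule (1.35% of all genes). Zeb1, a transcriptional repressor of epithelial genes, read -0.42 with AZD0156, -1.74 with KU55933 and -1.49 to -1.23 in Galactose (difference 1.32). It reached 5 on the AZD0156 array alone, so it entered the comparison through the array where it was high. Slc6a6, the taurine transporter, read -0.25 with AZD0156, -0.77 with KU55933, -1.96 to -1.31 in Galactose and 1.43 in the Control, so both compounds lay between Galactose and the Control (difference 0.52). Slc6a6 was under 5 on every Galactose array. Galt, galactose-1-phosphate uridylyltransferase, read -0.16 with AZD0156, -1.21 with KU55933 and -0.57 to -0.38 in Galactose (difference 1.05).

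Genes of mitochondrial energy metabolism were more often lower than higher with AZD0156. Of 78 genes of the respiratory chain and ATP synthase, 54 had a negative difference (48.2% of all genes), with a median of -0.15. By the rule of size 3 were lower (Ndufc2, Ndufb3 and Cox7a2l) and 1 was higher (Atp5pd), against 1.61% and 1.35% of all genes, so the share of higher genes was that of the background and the lower ones were few. Ndufc2, a subunit of complex I, read 1.44 with AZD0156, 2.71 with KU55933 and 2.54, 1.83 and 1.91 in Galactose (difference -1.27). Ndufb3, another subunit of it, read 1.33 with AZD0156, 2.55 with KU55933 and 2.56, 1.54 and 1.66 in Galactose (difference -1.21). Galactose replicate 1 stood with KU55933 in both, and it was the highest replicate in 61 of the 78 (37% of all genes). Hadhb, a subunit of the trifunctional protein of fatty acid oxidation, read 0.44 with AZD0156, 1.57 with KU55933 and 1.43, 1.002 and 1.06 in Galactose (difference -1.13). In the NRF2 list of 24 genes, Nqo1, a quinone reductase, was the 1 past the rule (1.61% of all genes were lower by it). It read -1.39 with AZD0156, -0.39 with KU55933, -0.58 to -0.04 in Galactose and -2.06 in the Control. Fbxo32, a ubiquitin ligase raised by FOXO factors, read 0.64 with AZD0156, -0.73 with KU55933 and -1.31, -0.14 and -0.42 in Galactose (difference 1.37). Bcl2l2, an inhibitor of apoptosis, had a difference of -1.22 and Bhlhe41, a repressor of the clock, of 1.03. Ribosomal protein genes and proteasome subunits had medians of -0.07 and -0.03 over 82 and 39 genes, with 0 past the rule of size in either.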

How the data were processed

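RNA of cultured rat lenses was hybridised to 6 GeneChip Rat Gene 2.0 ST arrays. The authors normalized them together by Robust Multi-array Average in R, and the deposited values are log2 signals per probe set. The package version and annotation are not given in the sources used here. Probe sets were named from the platform annotation. 5567 symbols matched RefSeq by Entrez ID. The 5784 gene-linked probe sets at 5 or above on at least 1 array were centred on each array's median. limma 3.58.1 (R 4.3.3) fitted 4 group means to the 6 arrays with a trend on mean signal, and p values were adjusted by Benjamini-Hochberg over all 5784 probe sets. Only the Galactose arrays gave a spread (2 residual degrees of freedom), moderated with 5.44 prior degrees of freedom and a prior SD of 0.220 at the median. Precision is limited by the number of arrays. Nothing in the labels says that the Galactose replicates are separate cultures, so p values may cover technical spread only.

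Named genes carry 1 symbol and are given by their probe set with the highest mean. They are the 12 with the lowest p past the rule of size in each direction, up to 4 with the largest difference per gene list, the genes of the study's network, and up to 6 in each direction with both inhibitors on opposite sides or on 1 side of Galactose. Gbp2 was named after its value was seen. The members and lists were chosen with earlier results of these data known, so lists were not tested. Promoters (trimmed to the bases before the start) and mature microRNAs are from RefSeq, GRCr8. Other gene coordinates were not used here. The fit was tested on simulated data. Alternatives were other scalings, filters, moderation and leaving out arrays. Python 3.11.15 and pandas 2.3.3 did the rest.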

Additional observations from a re-analysis of the deposited data

Results flagged for a closer look

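Probe sets that the platform annotation links to no gene were outside the comparison, and 3102 of them reached 5 on at least 1 array. Each array was centred on its median over the gene-linked probe sets. Of the 3102, 423 were higher by at least 1 with AZD0156 than with KU55933 and 167 were lower. The differences had an SD of 0.821 and a median of 0.166. The signal drew attention because it lies in probe sets that entered no comparison. The Galactose pairs were split as 377 higher and 218 lower for replicate 1 against 2, 489 and 181 for 1 against 3, and 117 and 80 for 2 against 3. The median differences of these pairs were 0.095, 0.162 and 0.085.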

How the results depend on the processing

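The limma test called 0 probe sets under every alternative except those that left out a Galactose array, which gave 363 without replicate 1, 33 without replicate 2 and 1 without replicate 3. These fits keep 1 residual degree of freedom, and their prior SD was 0.179, 0.277 and 0.257 against 0.220 with all 3 arrays. Their prior degrees of freedom were 62.7, infinite and 11.5 against 5.44. These fits thus lean more on the spread shared over probe sets. With them, counts at an unadjusted p of 0.05 ranged from 154 to 494 higher and from 226 to 623 lower, and counts past the rule of size from 77 to 82 higher and from 98 to 106 lower. Without centring, counts were 51 higher and 622 lower at an unadjusted p, and 27 and 269 by size. A minimum of 4 gave 320 and 418, and 142 and 151 by size. A minimum of 6 gave 54 and 147, and 30 and 62 by size. No filter gave 539 and 1071, and 175 and 433 by size. All probe sets, linked to a gene or not, gave 417 and 337, and 413 and 254 by size, with an SD of 0.609. A minimum of 6 on a Galactose array, chosen after seeing the data, gave 20 and 61 by size.

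Genes near 0 changed sign. Under cyclic loess Trub2 was -0.028, Rpl10l4 -0.012 and Plk3 -0.027. Without centring Trub2 was -0.19, Spg11 -0.18, Rpl10l4 -0.20, Plk3 -0.19, Trim28 -0.084, Smc3 -0.092, Por -0.086 and Ephx1 -0.10. With a minimum of 4, Trub2 was -0.017, Spg11 -0.000422, Rpl10l4 -0.027 and Plk3 -0.019. With no filter, Trub2 was -0.22, Spg11 -0.20, Rpl10l4 -0.23, Plk3 -0.22, Trim28 -0.11, Smc3 -0.12, Cyp2b1 -0.00322, Por -0.11 and Ephx1 -0.12. No paired analysis was possible because each inhibitor has a single array with no replicate number shared with it. Signals under 5 were not resolved.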

Other observations

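In some genes both inhibitor arrays lay on the same side of all Galactose arrays. Trub2, a pseudouridine synthase, read -0.10 with AZD0156 and -0.14 with KU55933, with -1.66 to -1.16 in the Galactose replicates and -1.996 in the Control (centred log2 signal). It reached 5 on the inhibitor arrays only, and so entered through the arrays where it was high. Spg11, which acts in lysosome reformation, read -0.14 and -0.20, with -0.93 to -0.75 in Galactose, and Usp12, a deubiquitinase, read -0.31 and -0.59, with -1.93 to -1.33. Usp12, like Trub2, was under 5 on every Galactose array. Kpna2, a nuclear import receptor, lay on the other side, with -1.20 with AZD0156, -0.60 with KU55933 and 0.27 to 0.65 in Galactose. The 95% intervals of the differences between the inhibitors were -0.81 to 0.90 for Trub2, -0.56 to 0.69 for Spg11, -0.61 to 1.19 for Usp12 and -1.27 to 0.07 for Kpna2 (limma), so differences of up to about these sizes were not resolved.

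Galactose replicate 1 differed from replicates 2 and 3 in whole gene groups. After centring, it was the highest replicate in 70 of 82 cytosolic ribosomal protein genes and in 10 of 10 crystallin genes (37% of all genes). It was the lowest in 22 of 26 glycolysis and hypoxia genes (39.7% of all genes). The crystallin count depended on the scaling. Before centring, replicate 1 had the lowest median of the Galactose arrays (5.69 against 5.75 and 5.81), and replicate 2 was the highest in Crygb. The median difference of replicate 1 from the mean of the other replicates was 0.43 for the ribosomal protein genes and -0.44 for the glycolysis and hypoxia genes. The median differences between the inhibitors there were -0.07 and -0.06.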
